A study of Mus musculus with 11 samples.

Results

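The genes described here were 10 regulators of the cell cycle, taken by name from the 52997 genes of the count table: the cyclins Ccnd2, Ccnd3, Ccne1, Ccne2, Ccna2, Ccnb1 and Ccnb2, and the inhibitors of cyclin-dependent kinases (CDKs) Cdkn1a, Cdkn1b and Cdkn2c. All 10 passed the filter on low counts. They were followed in regulatory T (Treg) cells of vTreg53 TCR-transgenic mice. These carry heterozygous Tcra and Tcrb transgenes of 1 Treg clone from visceral adipose tissue (VAT). The study describes their repertoire as strongly skewed toward the receptor of that clone. Whether every sorted cell carried only that receptor was not tested. The peptide Fat1562 is a surrogate agonist of this receptor.

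Donor Treg cells, from male C57BL/6 Tg+ mice that also carried a Foxp3-GFP reporter, were transferred into CD45.1+ B6 recipients. Recipients were primed 6 weeks later under the skin in CFA and boosted after 1 week in the peritoneum in IFA, with 200 and then 100 µg of Fat1562 or with adjuvant alone, and clonotype+ CD45.2+ Treg cells were sorted 1 week after the boost, 1000 per library, at a labelled age of 15 weeks. The labels call the control mice unimmunized and name PBS, whereas the methods of the study describe adjuvant alone, and the latter name is kept. There were 3 libraries each from pooled spleen and lymph nodes (Spl/LN) with adjuvant alone, Spl/LN with Fat1562 and VAT with Fat1562, and 2 from VAT with adjuvant alone. The study calls the libraries of a group biological replicates. Neither its methods nor the labels say whether they came from separate mice, so p-values measure the spread between these libraries.

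Cyclins are the activating subunits of CDKs, and the E, A and B types each rise and are destroyed at their own stage of the cycle. D-type cyclins with CDK4 and CDK6 carry growth and antigen signals into G1, E-type cyclins with CDK2 act at the start of DNA replication, cyclin A2 acts through S phase and G2, and B-type cyclins with CDK1 drive mitosis. Cdkn1a (p21) and Cdkn1b (p27) bind cyclin-CDK complexes, whereas Cdkn2c (p18) binds CDK4 and CDK6. A large part of this control acts on the proteins, which were not measured.

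Values are normalized counts, which are the deposited counts after TMM scaling for depth, set to the average library, listed in the order of the replicate numbers. Total counts ran from 4490242 to 6570057 per library. Differences are log2 fold changes ± SE from edgeR's quasi-likelihood test, with Benjamini-Hochberg adjustment over 12932 genes, and calls were made at 0.05 on the adjusted scale. In bulk RNA, fewer cells that express a gene and less RNA per cell cannot be told apart. Foxp3, the defining factor of Treg cells, was abundant in every group, with means from 7131 to 9877. The summed level of 6 Treg markers ran from 4834 to 7507 CPM (counts scaled to a common total) over the libraries, and no summed list of B cell, macrophage, CD8 T and NK cell, adipocyte and stroma, or dendritic cell markers passed 43.7. Among the dendritic cell markers, Xcr1 was higher in VAT, with a mean of 67.2 ± 18.9 (SD, n = 2) against 13.6 ± 12.6 (SD, n = 3) with adjuvant alone, while Clec9a was at 0 throughout VAT. Other markers called were Itgam, a myeloid integrin, at means of 3.13 in VAT with adjuvant alone, 29.2 in VAT with Fat1562 and 27.0 in Spl/LN with adjuvant alone. Klrb1c, of NK cells, was at 25.6 in Spl/LN with Fat1562 against 2.24 with adjuvant alone there and 1.36 in VAT with Fat1562, and Cd79b, of B cells, was at 152 in Spl/LN and 66.7 in VAT with Fat1562. The part of these markers in the results was not tested.

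In VAT, Fat1562 went with more RNA for Ccne2, Ccna2, Ccnb1 and Ccnb2, up to 3.58-fold for Ccne2, and with less Ccnd2 and Cdkn1a. The other E-type cyclin, Ccne1, was not called. Of the 10 genes, 4 rose and 2 fell, where 4.32% of all tested genes rose and 3.97% fell. In Spl/LN, 0 rose and 0 fell by edgeR's test, against 2.58% and 1.40% of all tested genes, although 3 of the 10 had an unadjusted p under 0.05 and DESeq2 called 1 of them. The difference between the effects in VAT and Spl/LN, tested as an interaction, was called for 5 genes, 3 with a higher and 2 with a lower effect in VAT, against 1.70% and 2.02% of all tested genes. Between the tissues, 3 genes were higher and 2 lower in VAT with adjuvant alone, where 9.09% of all tested genes were higher and 7.17% lower. With Fat1562, 4 were higher and 1 lower, against 8.26% and 6.73%. The median log2 difference of the 10 genes was 0.24 for Fat1562 in VAT and 0.05 in Spl/LN, beside 0.01 and 0.00 over all tested genes. These comparisons share libraries, and the 2 VAT libraries with adjuvant alone enter 3 of the 5.

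**Figure D1:**
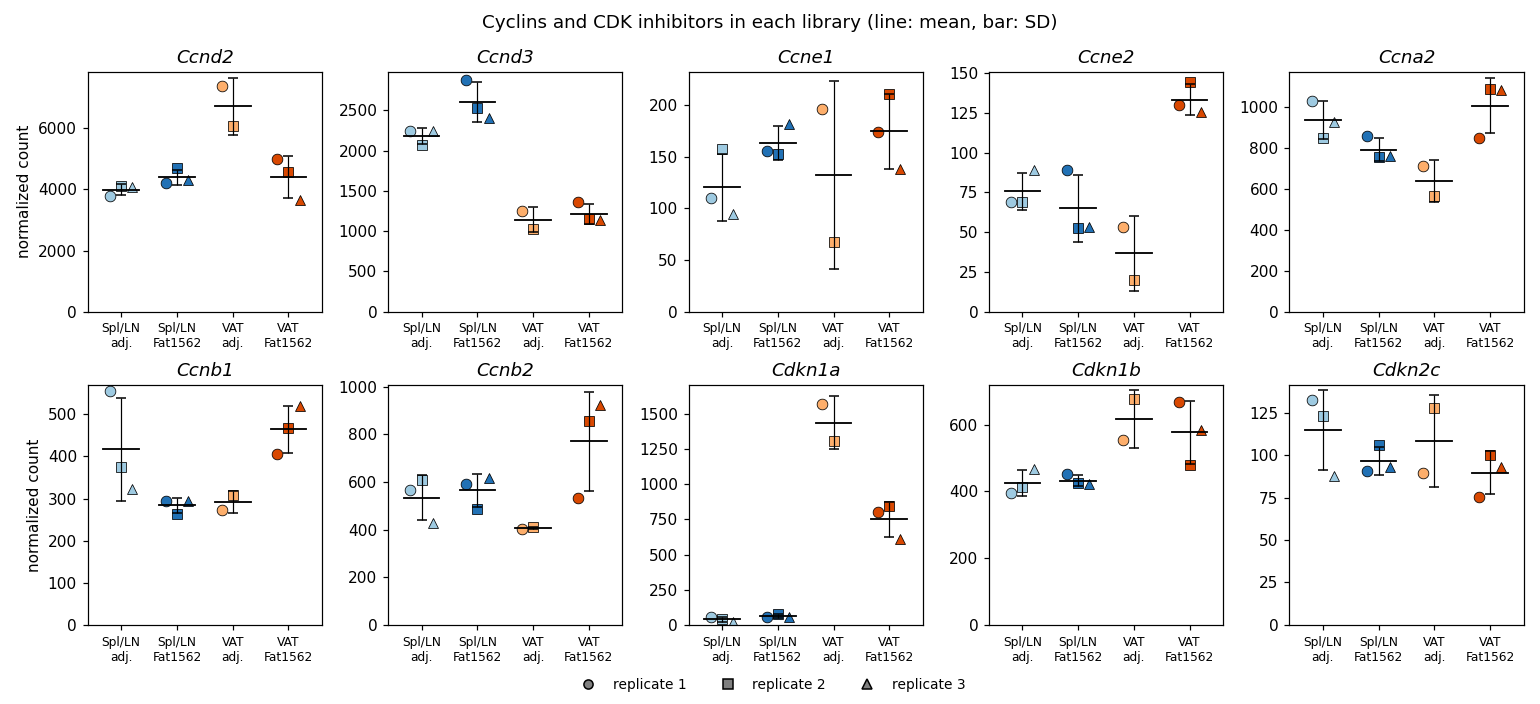
Normalized counts of the 10 genes in every library (vertical axes, linear, from 0) by tissue and immunization; points are libraries, shaped by replicate number, lines are means and bars the SD. Cdkn1a lies at 23.8 to 80.5 in the Spl/LN libraries and at 609.7 to 1570.2 in the VAT libraries.

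The D-type cyclins had opposite patterns between the tissues with adjuvant alone. Ccnd2, on chromosome 6, was measured at 3789, 4108 and 4067 in Spl/LN with adjuvant alone, at 7372 and 6061 in VAT with adjuvant alone, at 4215, 4685 and 4292 in Spl/LN with Fat1562, and at 4979, 4575 and 3658 in VAT with Fat1562. Both VAT libraries with adjuvant alone lay above all 9 others. Ccnd2 was 1.68-fold higher in VAT than in Spl/LN with adjuvant alone (log2 difference 0.75 ± 0.11, adjusted p = 0.000140 by edgeR). It fell in VAT with Fat1562 (-0.61 ± 0.11, adjusted p = 0.00235 by edgeR), where the tissues then overlapped, with a log2 difference of 0.00 and a 95% interval from -0.22 to 0.22. The effects in VAT and Spl/LN differed by -0.75 ± 0.15 (adjusted p = 0.00994 by edgeR). Without VAT adjuvant replicate 1 the fall was -0.46 and the difference of effects -0.60, with adjusted p-values of 0.0696 and 0.0812 by edgeR.

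Ccnd3, a D-type cyclin needed for the expansion of early lymphocytes, was counted at 2248, 2070.1 and 2239 in Spl/LN with adjuvant alone, at 2884, 2527 and 2400.2 in Spl/LN with Fat1562, at 1251 and 1032 in VAT with adjuvant alone, and at 1359, 1151 and 1139 in VAT with Fat1562. All VAT libraries lay below all Spl/LN libraries. The gene was 1.91-fold lower in VAT with adjuvant alone (log2 difference -0.94 ± 0.12, adjusted p = 2.01e-05 by edgeR) and 2.14-fold lower with Fat1562 (-1.10 ± 0.10, adjusted p = 7.63e-07 by edgeR). The effect of Fat1562 on Ccnd3 was 0.09 ± 0.12 in VAT and 0.25 ± 0.10 in Spl/LN on the log2 scale, neither of them called. Per kb of exon, the level of Ccnd2 relative to Ccnd3 ran from 1.36 to 1.85 over the 6 Spl/LN libraries. It ran from 3.00 to 3.71 in VAT with Fat1562, and from 5.48 to 5.50 in VAT with adjuvant alone. The lengths count the exon bases of all annotated transcripts, 9409 for Ccnd2 and 8775 for Ccnd3. Whether the order of these genes holds with other lengths was not tested.

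**Figure D2:**
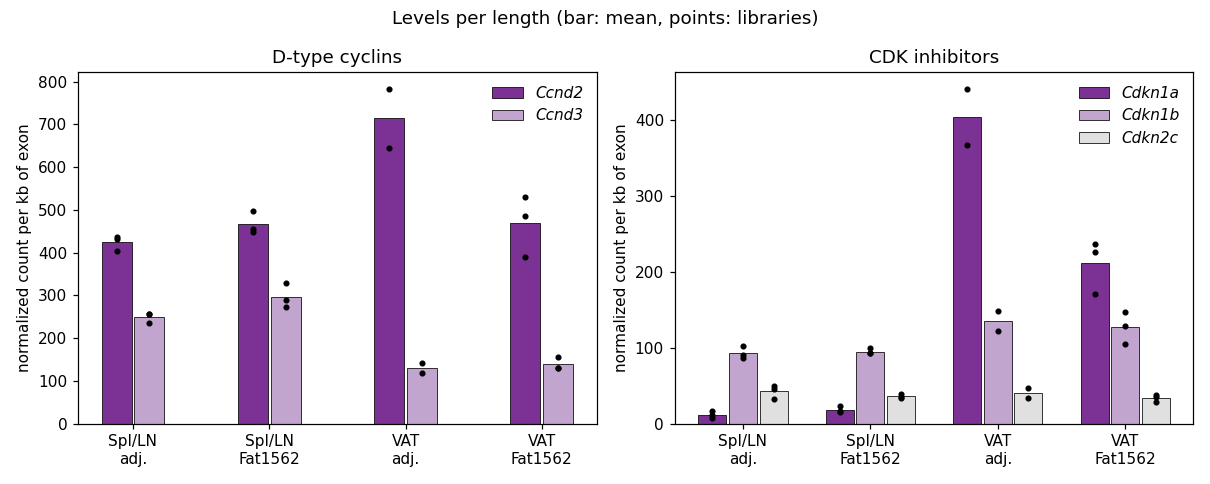
Normalized counts per kb of exon (vertical axes, linear, from 0) of the D-type cyclins and of the CDK inhibitors in the 4 groups; bars are means and points libraries. Lengths count the exon bases of all annotated transcripts. On that scale Ccnd2 exceeds Ccnd3 in every group. Cdkn1a exceeds Cdkn1b in the VAT groups and lies below it in the Spl/LN groups.

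The E-type cyclins differed from each other. Ccne2 was counted at 68.8, 69.0 and 89.0 in Spl/LN with adjuvant alone, at 89.1, 52.6 and 53.1 in Spl/LN with Fat1562, at 53.4 and 20.0 in VAT with adjuvant alone, and at 129.8, 144 and 125 in VAT with Fat1562. All VAT libraries with Fat1562 were above every other library. Ccne2 rose 3.58-fold with Fat1562 in VAT (log2 fold change 1.84 ± 0.37, adjusted p = 0.00469 by edgeR), and its estimate in Spl/LN was -0.22 ± 0.31. The effects differed by 2.06 ± 0.48 (adjusted p = 0.0227 by edgeR). With Fat1562 the gene was higher in VAT than in Spl/LN (1.04 ± 0.30, adjusted p = 0.0288 by edgeR), a call lost in 5 of 19 alternatives, all of which leave out 1 Fat1562 library. The rise in VAT depended on the libraries with adjuvant alone. It was 2.73 without replicate 1 of that group, and 1.32 with an adjusted p of 0.0866 by edgeR without replicate 2, where the difference of effects was 2.95 and 1.54, the latter with an adjusted p of 0.120 by edgeR. Of the stretches of 38 bases in Ccne2 transcripts, 15.2% are shared with Ints8 on the opposite strand, and Ints8 was called in none of the comparisons.

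Ccne1 was called in none of them. It was counted at 109, 157 and 94.5 in Spl/LN with adjuvant alone, at 155, 152 and 182 in Spl/LN with Fat1562, at 196 and 67.6 in VAT with adjuvant alone, and at 174, 211 and 138 in VAT with Fat1562. The 2 VAT libraries with adjuvant alone spanned the values of all 3 other groups apart from 1 library. The log2 effect of Fat1562 in VAT was 0.39 with a 95% interval from -0.32 to 1.10, and without VAT adjuvant replicate 1 it was 1.36 with an adjusted p of 0.0440 by edgeR.

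Ccna2, the cyclin of S phase and G2, was counted at 1031, 847 and 928 in Spl/LN with adjuvant alone, at 859, 756 and 761 in Spl/LN with Fat1562, at 710.4 and 565 in VAT with adjuvant alone, and at 849.9, 1085 and 1082 in VAT with Fat1562. VAT with adjuvant alone was the lowest of the groups, with no overlap with any other. Ccna2 rose 1.58-fold with Fat1562 in VAT (log2 fold change 0.66 ± 0.14, adjusted p = 0.00717 by edgeR), and its estimate in Spl/LN was -0.24 ± 0.12, not called. The effects differed by 0.90 ± 0.19 (adjusted p = 0.0112 by edgeR). With adjuvant alone the gene was lower in VAT than in Spl/LN (-0.55 ± 0.14, adjusted p = 0.0119 by edgeR). Without VAT adjuvant replicate 2, adjusted p-values by edgeR were 0.136 for the rise in VAT, 0.170 for the difference between tissues and 0.0818 for the difference of effects. Exosc9 on the opposite strand shares 11.7% of the 38-base stretches of Ccna2 and was not called in any comparison.

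The B-type cyclins of mitosis were read together with their promoters, since both rose with Fat1562 in VAT. The windows below, from RefSeq (GRCm38.p6), run from 250 bases before to 50 bases after the start of the gene, on its own minus strand. They are chr13:100786437-100786736 for Ccnb1 and chr9:70421505-70421804 for Ccnb2. Capitals mark CCAAT boxes and the words TTTGAA and TTTAAA of the cell cycle homology region, sites known from promoters of mitotic genes.
Ccnb1: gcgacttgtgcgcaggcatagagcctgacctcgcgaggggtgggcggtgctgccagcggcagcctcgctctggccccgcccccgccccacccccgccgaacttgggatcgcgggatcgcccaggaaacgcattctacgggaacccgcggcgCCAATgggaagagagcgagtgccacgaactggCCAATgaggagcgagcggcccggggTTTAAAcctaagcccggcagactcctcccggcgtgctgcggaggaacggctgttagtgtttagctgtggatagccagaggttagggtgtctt
Ccnb2: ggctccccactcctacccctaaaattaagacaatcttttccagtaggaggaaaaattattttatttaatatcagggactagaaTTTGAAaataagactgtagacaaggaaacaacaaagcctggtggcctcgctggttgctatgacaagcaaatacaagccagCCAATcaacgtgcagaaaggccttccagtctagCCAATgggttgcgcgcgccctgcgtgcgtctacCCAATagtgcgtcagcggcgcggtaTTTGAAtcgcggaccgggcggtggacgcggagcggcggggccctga
Ccnb1 holds CCAAT 2 times and TTTAAA 1 time, and Ccnb2 holds CCAAT 3 times and TTTGAA 2 times. With both strands searched, 37.4% of 32851 windows of the same length hold CCAAT, 27.6% hold TTTGAA or TTTAAA, and 10.7% hold both kinds. The window of Cdkn1b, which was not called for Fat1562 in either tissue, holds both kinds as well. No window of Ccnd3, Ccne1, Cdkn1a or Cdkn2c holds both. The part of these sites in the RNA levels was not tested. No window of the table was found for Ccnd2, Ccne2 or Ccna2.

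Ccnb1 was counted at 555, 374 and 322 in Spl/LN with adjuvant alone, at 295, 263 and 293 in Spl/LN with Fat1562, at 273 and 309 in VAT with adjuvant alone, and at 406, 467 and 519 in VAT with Fat1562. With Fat1562, all VAT libraries were above all Spl/LN libraries, and with adjuvant alone they were below. Ccnb1 rose 1.60-fold with Fat1562 in VAT (log2 fold change 0.67 ± 0.20, adjusted p = 0.0463 by edgeR), a call lost in 9 of 19 alternatives, with 0.69 and an adjusted p of 0.0610 under the replicate block. In Spl/LN the estimate was -0.55 ± 0.17 (adjusted p = 0.0906 by edgeR), called in 3 of 19 alternatives, DESeq2 among them. The effects differed by 1.23 ± 0.26 (adjusted p = 0.0142 by edgeR), and with Fat1562 the gene was higher in VAT than in Spl/LN (0.71 ± 0.17, adjusted p = 0.0100 by edgeR). The first of these was lost without VAT adjuvant replicate 1 (1.15, adjusted p = 0.0788 by edgeR), and the other without Spl/LN Fat1562 replicate 2 (0.66, adjusted p = 0.0501 by edgeR). Of its 38-base stretches, 26.0% also occur in other annotated genes, mostly processed pseudogenes. Ccnb1-ps and Gm12856, which share the most, were counted at 0 to 2 in every library, and how reads with several matches were treated is not given in the sources used here.

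Ccnb2 was counted at 568, 607 and 426 in Spl/LN with adjuvant alone, at 592, 486 and 618 in Spl/LN with Fat1562, at 402 and 409.6 in VAT with adjuvant alone, and at 534, 855 and 922 in VAT with Fat1562. VAT with adjuvant alone was below all other groups, and VAT with Fat1562 overlapped both Spl/LN groups through 1 library. Ccnb2 rose 1.90-fold with Fat1562 in VAT (log2 fold change 0.93 ± 0.20, adjusted p = 0.00845 by edgeR). This call was lost without either VAT adjuvant library, with adjusted p-values of 0.0762 and 0.0693 by edgeR at changes of 0.91 and 0.94. Its interaction was 0.84 ± 0.27 (adjusted p = 0.103 by edgeR). It was not called by edgeR here but was in 4 alternatives, with adjusted p-values of 0.0384 by DESeq2 and 0.00388 by edgeR with no filter.

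**Figure D3:**
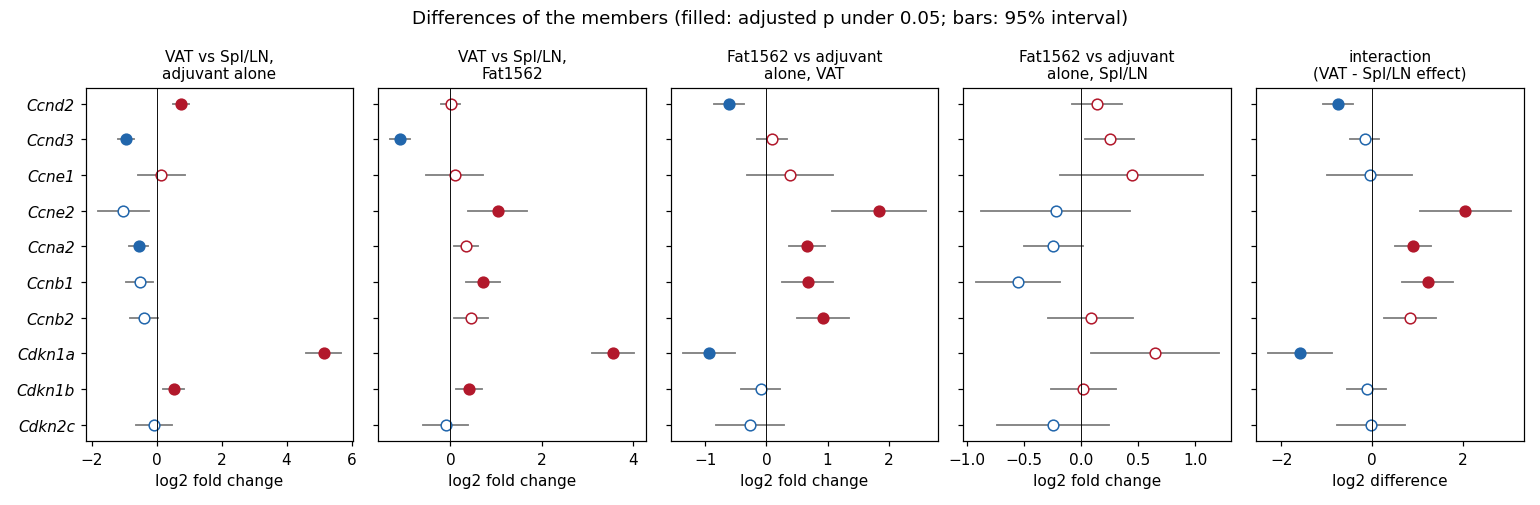
Log2 fold changes (horizontal axes, scaled per panel) of the 10 genes in the 4 comparisons and the interaction; points are edgeR estimates, filled at an adjusted p under 0.05, and bars are 95% intervals. Ccne2, Ccna2, Ccnb1 and Ccnb2 are filled to the right of 0 for Fat1562 in VAT, and no gene is filled for Fat1562 in Spl/LN.

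Of the inhibitors, Cdkn1a had by far the widest range. It was counted at 58.1, 40.8 and 23.8 in Spl/LN with adjuvant alone, at 58.4, 80.5 and 54.7 in Spl/LN with Fat1562, at 1570.2 and 1304 in VAT with adjuvant alone, and at 804, 843 and 609.7 in VAT with Fat1562. The tissues did not overlap, nor did the VAT groups. Cdkn1a was 35.2-fold higher in VAT with adjuvant alone (log2 difference 5.14 ± 0.25, adjusted p = 1.07e-10 by edgeR) and 11.7-fold higher with Fat1562 (3.55 ± 0.22, adjusted p = 5.26e-09 by edgeR). It fell with Fat1562 in VAT (-0.94 ± 0.20, adjusted p = 0.00664 by edgeR), and its estimate in Spl/LN was 0.65 ± 0.26 (adjusted p = 0.191 by edgeR). With no filter the estimate in Spl/LN was called (adjusted p = 0.0398 by edgeR). The effects differed by -1.58 ± 0.33 (adjusted p = 0.0111 by edgeR). Without VAT adjuvant replicate 1 the fall was -0.79 and the difference of effects -1.44, with adjusted p-values of 0.107 and 0.0608 by edgeR. Per kb of exon, Cdkn1a made up 4.71 to 14.6% of the summed level of the 3 inhibitors in the Spl/LN libraries. It made up 51.3 to 62.5% in VAT with Fat1562, and 65.1 to 74.0% in VAT with adjuvant alone. Cdkn2d, a CDK inhibitor outside the 10 genes, is not part of this sum. Its means per kb were 399 and 206 in VAT with adjuvant alone and with Fat1562, beside 404 and 212 for Cdkn1a. In Spl/LN they were 313 and 285, beside 11.5 and 18.2.

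Cdkn1b was counted at 394, 414 and 469 in Spl/LN with adjuvant alone, at 451, 424 and 421 in Spl/LN with Fat1562, at 555 and 678 in VAT with adjuvant alone, and at 668, 479 and 584 in VAT with Fat1562. Every VAT library was above every Spl/LN library. The log2 difference was 0.53 ± 0.15 with adjuvant alone (adjusted p = 0.0207 by edgeR) and 0.42 ± 0.13 with Fat1562 (adjusted p = 0.0456 by edgeR), calls lost in 3 and 9 of 19 alternatives. With the replicate block, the adjusted p with Fat1562 was 0.0622 by edgeR. The effect of Fat1562 on Cdkn1b was -0.09 in VAT with a 95% interval from -0.41 to 0.22, and 0.02 in Spl/LN with an interval from -0.27 to 0.31.

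Cdkn2c was counted at 133, 123 and 88.0 in Spl/LN with adjuvant alone, at 91.0, 106 and 93.3 in Spl/LN with Fat1562, at 89.3 and 128 in VAT with adjuvant alone, and at 75.6, 100.2 and 93.4 in VAT with Fat1562. All groups overlapped and no comparison was called. For Fat1562 in VAT, the 95% interval of its log2 change ran from -0.83 to 0.29.

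The other genes of the CDK machinery were 27 cyclins, kinases, phosphatases, inhibitors and ubiquitin ligase subunits, of which 24 were tested. With Fat1562 in VAT, 4 rose and 1 fell, where 4.32% and 3.97% of all tested genes did, and their median log2 change was 0.54 beside 0.01 over all tested genes. Cdk1, the kinase of the B-type cyclins, rose (0.69 ± 0.15, adjusted p = 0.00818 by edgeR), as did its binding partner Cks1b (0.83 ± 0.17, adjusted p = 0.00516 by edgeR). Fbxo5, an inhibitor of the anaphase-promoting complex, rose by 0.73, and Cdkn2d, an inhibitor of CDK4 and CDK6 like Cdkn2c, fell by 0.95. Between the tissues, 2 were higher and 3 lower in VAT with adjuvant alone (median -0.36), and 4 were higher and 2 lower with Fat1562 (median 0.19), beside 9.09% higher and 7.17% lower, and 8.26% and 6.73%, of all tested genes. In Spl/LN, 0 of the 24 were called by edgeR's test and 0 by DESeq2, with a median of -0.13, and 2 had an unadjusted p under 0.05. The interaction was called for Cks1b (1.11), Cdk1 (0.93) and Cdkn2d (-0.82). Among the calls between tissues, Cdk6, a partner of the D-type cyclins, was higher in VAT in both comparisons (0.56 and 0.59). The CDK inhibitor gene Cdkn2b was also higher in VAT with adjuvant alone (1.94 ± 0.62, adjusted p = 0.0373 by edgeR), at a mean of 99.9 against 26.0. With Fat1562 its difference was 1.83, not called. Fbxo5 was lower in VAT with adjuvant alone (-0.69), a call lost without Spl/LN adjuvant replicate 1. Cdkn2d was lower in VAT with Fat1562 (-0.46), a call lost without any of 5 libraries. Cdk4, the other partner of the D-type cyclins, was lower in VAT with adjuvant alone (-0.32, adjusted p = 0.0473 by edgeR). With Fat1562 it was not called (0.07). The phosphatase Cdc25b was lower in VAT in both (-0.83 and -0.60). Mki67 and Top2a, which mark cycling cells, also rose with Fat1562 in VAT, by 0.74 ± 0.14 (adjusted p = 0.00330) and 0.75 ± 0.15 (adjusted p = 0.00355, both by edgeR). Leaving out libraries was extended to the named genes of these lists, apart from Cdk4, Cdkn2b, Mdm2 and Bax, after seeing the data. Without VAT adjuvant replicate 2, Cdk1, Cks1b, Fbxo5, Mki67 and Top2a were no longer called with Fat1562 in VAT, at changes from 0.56 to 0.71, and Fbxo5 was also lost without 5 other libraries. The interactions of Cdk1 and Cks1b were lost without the same library, and that of Cdkn2d without any of 8 libraries.

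Cdkn1a is a classical target of p53, and 18 of 20 other genes of that pathway were tested. With adjuvant alone, 4 were higher in VAT and 0 lower by edgeR's test (DESeq2 called 1 lower, and 3 were lower at an unadjusted p under 0.05), and with Fat1562 6 were higher and 1 lower, with medians of -0.04 and 0.12, where 9.09% and 8.26% of all tested genes were higher and 7.17% and 6.73% lower. Those higher with adjuvant alone were the kinase Plk2 (5.66 ± 0.68), the antiproliferative gene Btg2 (2.77), the BH3-only gene Pmaip1 (2.39) and the death receptor gene Tnfrsf10b (2.12). The value of Plk2 rests on a group with counts of 16, 0 and 1 in Spl/LN against 315 and 181 in VAT, and it was 8.87 without the first of these libraries. With adjuvant alone, 14 genes of the list were not called between tissues by edgeR. Among them were the p53 targets Mdm2 and Bax, with differences of 0.14 ± 0.15 and 0.15 ± 0.13. The part of p53 in the level of Cdkn1a was not tested. With Fat1562 in VAT, Btg2 fell like Cdkn1a (-1.67 ± 0.13, adjusted p = 5.74e-07 by edgeR), from a mean of 5138 ± 584 (SD, n = 2) to 1612 ± 19.5 (SD, n = 3). Sesn1 fell (-0.66) and Ddit4 rose (1.45). In Spl/LN, Pmaip1, Ddit4 and Plk2 rose, by 1.07, 0.63 and 2.45, and the interaction was called for Btg2 (-1.88) and Pmaip1 (-1.13). The rise of Plk2 in Spl/LN was 5.65 without Spl/LN adjuvant replicate 1 and was not called without any of 6 other libraries. Ddit4 in Spl/LN and the interaction of Pmaip1 were lost without any of 4 and 6 libraries, and the fall of Sesn1 without VAT adjuvant replicate 2.

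**Figure D4:**
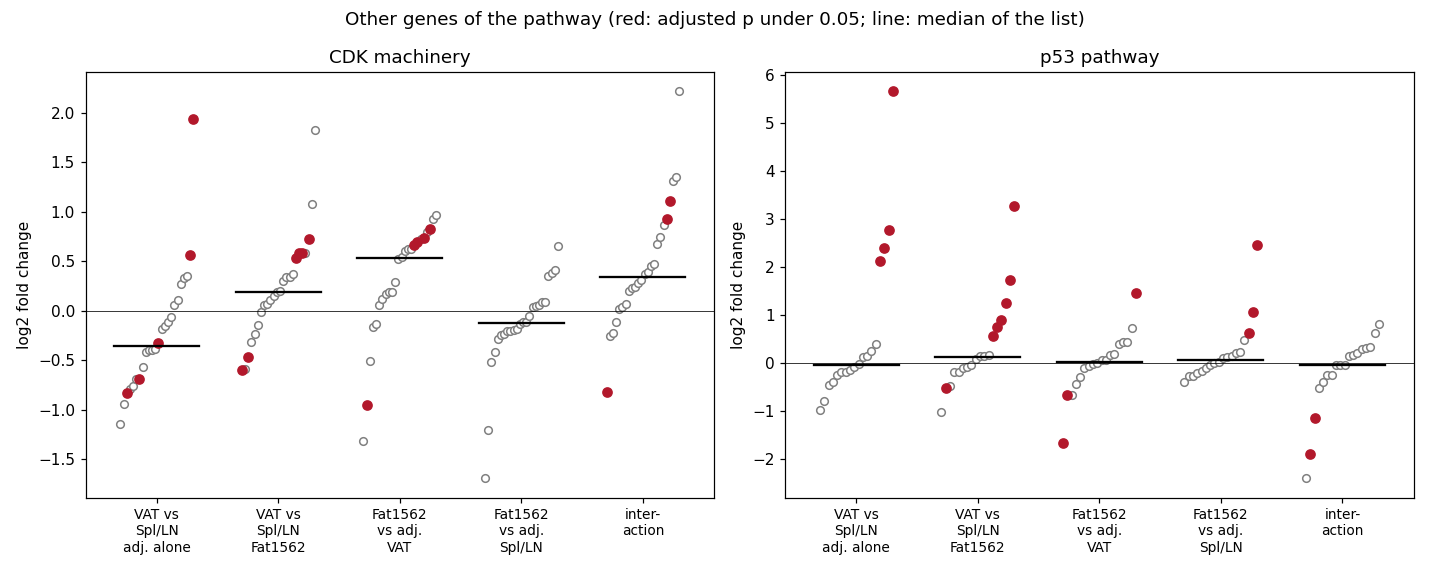
Log2 fold changes (vertical axes) of the tested genes of the CDK machinery (24) and the p53 pathway (18) in the 4 comparisons and the interaction; points are genes in order of change, red at an adjusted p under 0.05, and lines are list medians. The median of the CDK machinery lies at 0.54 for Fat1562 in VAT and at -0.13 in Spl/LN.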

How the data were processed

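RNA was measured in 11 Smart-seq2 libraries. The authors deposited 1 table of counts, whole numbers without normalization, from paired reads of 38 bases. The submitters' processing notes name STAR 2.5.4, featureCounts and mm10, and the methods name Cuffquant; the annotation and strand setting are not given in the sources used here. The protocol marks no strand, so reads of overlapping opposite genes cannot be told apart. No molecular identifiers are named, so errors cover counting and the spread between libraries. Column names were matched to sample labels, with 0 columns unmatched.

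The filter kept 12932 genes whose mean passed 10 in 1 or more groups, and these were tested in 1 fit of all 4 groups with edgeR 4.0.16 in R 4.3.3 (TMM, quasi-likelihood, prior count 0.125). The steps were run on simulated data with genes changed only in VAT with Fat1562. The tissues were otherwise alike there, unlike in these data, and no result rests on that run. The 10 genes, the lists and the tests were chosen with earlier results of these data known. Named besides the 10 were Foxp3, Mki67, Top2a and other reference genes, up to 4 called genes per list and comparison with the smallest p, and the 2 genes most alike to each of the 10. Mdm2, Bax, Cdk4 and the gene pairs that share sequence were named after their values were seen. Alternatives were no filter, a filter at 50, a coefficient of variation under 0.7, median-of-ratios size factors, quantile normalization (limma 3.58.1), only the groups compared, a replicate block, DESeq2 1.42.0 and each library left out. Lengths, as the exon bases of all annotated transcripts of a gene, and shared sequence came from GENCODE vM21 (GRCm38).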

Additional observations from a re-analysis of the deposited data

Results flagged for a closer look

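For 5 of the 10 genes the effect of Fat1562 was not the same in VAT and Spl/LN by the interaction term of edgeR, which tests the difference itself. The log2 effect in VAT minus that in Spl/LN was 2.06 for Ccne2, 1.23 for Ccnb1 and 0.90 for Ccna2, and each of these genes rose in VAT. It was -0.75 for Ccnd2 and -1.58 for Cdkn1a, and both fell in VAT. Each of the 5 calls was lost without 1 of the 2 VAT libraries with adjuvant alone. By edgeR, without replicate 1 the adjusted p was 0.0812 for Ccnd2, 0.0788 for Ccnb1 and 0.0608 for Cdkn1a, and without replicate 2 it was 0.120 for Ccne2 and 0.0818 for Ccna2. In Spl/LN, none of the 5 effects was called by edgeR at the adjusted threshold in the main fit. Ccnb1 and Cdkn1a had an unadjusted p under 0.05 there, and DESeq2 called Ccnb1. With no filter, edgeR called both, Ccnb1 at -0.55 (adjusted p = 0.0236 by edgeR) and Cdkn1a at 0.65 (adjusted p = 0.0398 by edgeR). No group had more than 3 libraries, so no search for outlying libraries was made.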

How the results depend on the processing

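None of the 21 calls among the 10 genes changed sign in 18 or 19 alternatives each, and 5 calls passed the threshold in all of them. All 5 were differences between tissues, of Ccnd3 and Cdkn1a in both comparisons and of Ccnd2 with adjuvant alone. Every call for Fat1562 in VAT and every interaction call was lost in 1 or more alternatives. Sign changes, 37 of 395 values, occurred for 14 of 21 uncalled differences of at most 0.44 (log2), for which the estimates show no stable direction. The VAT group with adjuvant alone had 2 libraries, and leaving out either left 1, which was assumed to vary like the other groups. How depth limits the calls was not tested.

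With 1 library left out, the number called among the 10 ran from 3 to 6 between tissues with adjuvant alone (5 with all libraries), from 2 to 5 between tissues with Fat1562 (5), from 2 to 6 for Fat1562 in VAT (6), from 0 to 1 in Spl/LN (0) and from 2 to 6 in the interaction (5). For Fat1562 in VAT it was 3 without VAT adjuvant replicate 1 and 2 without replicate 2, and for the interaction 2 and 3. In Spl/LN it was 2 with no filter and 1 with DESeq2. The interaction of Ccne2 was not called without VAT adjuvant replicate 2 (1.54), VAT Fat1562 replicate 2 (2.00), or Spl/LN Fat1562 replicate 2 or 3 (1.94 and 1.93). The interactions of Ccnd2 (-0.60), Ccnb1 (1.15) and Cdkn1a (-1.44) were not called without VAT adjuvant replicate 1, nor that of Ccna2 (0.75) without replicate 2. The interaction of Ccnb2 was called with no filter (0.84), with DESeq2 (0.83), without Spl/LN adjuvant replicate 3 (0.98) and without VAT Fat1562 replicate 1 (1.04). The cause was not tested.

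Libraries of the same number did not deviate together from their group means (r from -0.04 to 0.05 over 15 pairs, median 0.00). The numbers were therefore not taken to pair them. Adding a replicate block to the fit ended the calls of Ccnb1 for Fat1562 in VAT (0.69) and of Cdkn1b between tissues with Fat1562 (0.41). The block gave Ccnd2 between tissues with Fat1562 -0.0054, and the interactions of Ccne1 0.028 and Cdkn2c 0.039.

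Quantile normalization gave -0.0016 for Ccne1 between tissues with adjuvant alone, -0.13 for Ccnd2 between tissues with Fat1562, -0.0088 for Ccnd2 with Fat1562 in Spl/LN and 0.069 for the interaction of Ccne1. For Ccnd2 between tissues with Fat1562, no filter gave -0.0085 and a mean above 50 gave -0.00013. With 1 library left out, log2 differences ran between tissues with adjuvant alone from -0.83 to 0.70 for Ccne1 and from -0.36 to 0.15 for Cdkn2c, and with Fat1562 from -0.095 to 0.12 for Ccnd2 and from -0.070 to 0.24 for Ccne1. For Fat1562 in VAT they ran from -0.039 to 0.24 for Ccnd3, -0.17 to 1.36 for Ccne1, -0.23 to 0.059 for Cdkn1b and -0.51 to 0.010 for Cdkn2c. In Spl/LN they ran from -0.050 to 0.19 for Ccnb2 and from -0.028 to 0.099 for Cdkn1b. For the interaction they ran from -0.61 to 0.92 for Ccne1, -0.25 to 0.042 for Cdkn1b and -0.26 to 0.26 for Cdkn2c.

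Over all tested genes, the number called moved by over 1.5 times as follows. Between tissues with adjuvant alone, 2102 became 1259 and 1367 without VAT adjuvant replicates 1 and 2, and with Fat1562, 1938 became 1289 without VAT Fat1562 replicate 2. For Fat1562 in VAT, 1073 became 545 and 508 without VAT adjuvant replicates 1 and 2 and 623 without VAT Fat1562 replicate 2. In Spl/LN, 515 became 793 with no filter and with DESeq2, and 334, 190 and 320 without Spl/LN Fat1562 replicates 1, 2 and 3. For the interaction, 481 became 789 with DESeq2, and 240 and 287 without VAT adjuvant replicates 1 and 2, 310 without Spl/LN Fat1562 replicate 2 and 276 without VAT Fat1562 replicate 2.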

Other observations

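The genes whose log2(normalized count + 1) followed each regulator most closely over the 11 libraries are given as a description, with Pearson's r, from 7386 or 7387 candidate genes with a mean of at least 100. The libraries fall into 4 groups, so r mostly reflects the group means, and the highest values among so many genes are high by selection. Cdkn1a was followed by Gm13684 (r = 0.988) and by Il10, an immunosuppressive cytokine (0.986). Il10 had mean normalized counts of 13.1 and 34.8 in Spl/LN with adjuvant alone and with Fat1562, and of 1146 and 593 in VAT. Ccna2 was followed by Birc5 (0.960) and Pclaf (0.958), Ccnb1 by Lmnb1 and Ube2c (both 0.923), Ccne2 by Slc25a38 (0.945) and Tyms (0.937), and Ccnb2 by Nucks1 (0.903) and Gtdc1 (0.890). Ccnd2 was followed by H2-K1 (0.930) and Capn2 (0.927), Ccnd3 by Utrn (0.968) and Rad9a (0.959), and Ccne1 by G3bp2 (0.920) and Srrt (0.894). Cdkn1b was followed by Gpld1 (0.941) and Klf7 (0.928), and Cdkn2c by Src (0.910) and Stard7 (0.866).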
